A study of Homo sapiens with 4 samples.

Results

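The genes described here are the receptors (NOTCH1, NOTCH2, NOTCH3 and NOTCH4), ligands (JAG1, JAG2 and DLL1) and target genes (HES1, HEY1 and NRARP) of the Notch pathway, 10 of the 60675 genes in the deposited tables. They were found by their symbols, and all 10 were present once. They were selected on their expected counts and TPM in HER2 L755S against HER2 WT libraries, with those values already in view. The differences between the lines are thus given as a description, with no p-value. Only which of them were past the threshold of the whole fit is told, and that supports nothing. Both lines were MM134 cells, an estrogen receptor positive line from an invasive lobular breast carcinoma. The HER2 L755S line carried a form of the receptor tyrosine kinase HER2 with a substitution in its kinase domain, and the HER2 WT line carried the wild-type form. Cells of both lines were grown to 70% confluence and then kept for 7 days without estrogen, in phenol red free medium with 5% charcoal-stripped serum. RNA was sequenced from 2 libraries of each line, HER2 L755S 1 and 2 and HER2 WT 1 and 2. The sources used here do not say by what method the HER2 forms were brought in, whether a line is a clone, or whether its libraries came from separate cultures. Each genotype is thus represented by 1 line. The errors below rest on the spread between libraries, which may be technical, and the SE of a fit takes that spread partly from other genes.

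Notch receptors are membrane proteins that are cut when a ligand on a neighbouring cell binds them, first by the protease ADAM10 and then by the gamma-secretase complex. The freed intracellular part enters the nucleus, binds the DNA-binding protein RBPJ together with a Mastermind coactivator, and switches on target genes. In the mammary gland, Notch signalling is known for its part in luminal cell fate.

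NOTCH2 was lower in HER2 L755S than in HER2 WT libraries, by a fitted 18.1-fold, and it was the gene with the greatest difference among the 10. HES1, which encodes a repressor of the basic helix-loop-helix family that Notch switches on, was 2.23-fold higher, while HEY1, a target of the same family, was 3.17-fold lower. Both JAG2 and DLL1 were lower in HER2 L755S within each pair of same-numbered libraries. NOTCH3, which made up most of the receptor transcripts in every library, had 1 HER2 L755S library at the level of a HER2 WT library and the other above both. Outside the 10 genes, HEY2, another repressor of the HES1 family, fell 3.54-fold in HER2 L755S cells. Of 55 tested genes in other Notch pathway lists it was the 1 that passed, in a fit that called 1.69% of all tested genes. These lists too were chosen with earlier results of these data known, so the call is given as a description. In these bulk samples, fewer cells with a transcript and less of it per cell cannot be told apart.

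A total of 27423247 to 31088422 reads per library were assigned to genes, summed over expected counts. Mitochondrial transcripts took 4.03% and 13.5% of them in HER2 L755S 1 and 2, against 4.395% and 8.83% in HER2 WT 1 and 2. All 7 luminal epithelial markers were detected, with a summed level of 6456 to 7068 CPM (the count as a share of the scaled library total) in HER2 L755S and 7011 to 7709 CPM in HER2 WT libraries. Within that list ESR1, the estrogen receptor gene, had 64.7 and 122 CPM in HER2 L755S, against 176 and 282 in HER2 WT, with no overlap. KRT19 was also lower in HER2 L755S with no overlap, at 2896 and 3050 against 3996 and 3613 CPM. GATA3, FOXA1 and EPCAM were higher in HER2 L755S with no overlap. Over all tested genes, 36.2% did not overlap between the lines, and 0 of the 7 markers passed the test. The 8 endothelial markers, a list of interest because NOTCH4 and DLL4 are best known from that cell type, summed to 0.273 to 0.889 CPM in HER2 L755S and to 0.551 to 0.680 in HER2 WT, with PECAM1, CDH5, EMCN and ERG at 0 counts throughout. The 7 leukocyte markers summed to at most 0.342 CPM in any library, and the 5 basal and myoepithelial markers to at most 1.25 CPM. The 7 fibroblast markers summed to 61.9 to 114 CPM in HER2 L755S and to 54.7 to 101 in HER2 WT, nearly all of it COL1A1, with THY1 at 0 counts. ERBB2, which encodes HER2, had 2443 and 1203 CPM in the HER2 L755S libraries, while the HER2 WT libraries had 1934 and 1936 CPM, so the lines overlapped, and gene counts cannot show the substitution itself.

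Target genes are switched on by the nuclear complex at sites that can lie near their starts. RBPJ recognizes DNA with the core TGGGAA, which was searched for on both strands, also in its longer form GTGGGAA that contains the core. The windows were those of the RefSeq table on GRCh38.p14, from 250 bases before to 50 bases after each start, and 8 of the 10 genes had one (not DLL1 and HEY1). HES1, HEY2 and NRARP are shown, because HES1 was higher and HEY2 lower in HER2 L755S while NRARP overlapped between the lines. Capitals mark TGGGAA or, read on the other strand, TTCCCA. HES1 is shown from base -110 to -1 before its start (chr3:194136038-194136147, plus strand), HEY2 from -220 to 5 (chr6:125749412-125749636, plus strand) and NRARP from -110 to -1 (chr9:137302272-137302381, minus strand). The RefSeq start of HEY2 lies inside the longer HEY2 gene of GENCODE 29.
HES1: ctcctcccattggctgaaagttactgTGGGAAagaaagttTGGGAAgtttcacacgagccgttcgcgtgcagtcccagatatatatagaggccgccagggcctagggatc
HEY2: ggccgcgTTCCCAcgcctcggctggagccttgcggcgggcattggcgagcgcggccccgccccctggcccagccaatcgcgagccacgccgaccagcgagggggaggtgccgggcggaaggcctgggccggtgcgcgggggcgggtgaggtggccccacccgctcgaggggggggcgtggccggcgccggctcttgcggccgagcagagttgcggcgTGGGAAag
NRARP: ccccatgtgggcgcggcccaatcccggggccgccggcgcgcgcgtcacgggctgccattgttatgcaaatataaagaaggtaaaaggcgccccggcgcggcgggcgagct

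HES1 had the core on the given strand beginning at -84 and again at -70, and the first of these was also the longer form. HEY2 had the core on the given strand at -3 and on the other strand at -213, both as the longer form. None of the other 7 Notch genes with a window, NRARP included, held these letters there. Of 35116 windows of the same length, 24.0% held TGGGAA at least once and 3.80% held it at least 2 times, while 6.25% held GTGGGAA. A match is a description of the letters only.

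TPM, a share of all transcripts that takes account of transcript length, gave the order of the levels. HES1 stood at 60.4 and 40.9 TPM in HER2 L755S and 39.2 and 13.4 TPM in HER2 WT libraries, and NOTCH3 at 34.2 and 17.2 TPM against 18.7 and 17.1 TPM. JAG2 came next, at 11.7 and 6.40 TPM in HER2 L755S and 22.3 and 13.7 TPM in HER2 WT. In HER2 L755S libraries these 3 genes lay in separate ranges, HES1 above NOTCH3 and NOTCH3 above JAG2, while in HER2 WT libraries their ranges overlapped and the order was not fixed. NRARP, at 1.95 to 5.02 TPM over the 4 libraries, was the fourth in all but HER2 WT 2, where NOTCH2 (2.68 TPM) stood above NRARP (2.37 TPM). NOTCH4, DLL1, JAG1, NOTCH1, NOTCH2 and HEY1 all stayed under 3 TPM.

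**Figure D1:**
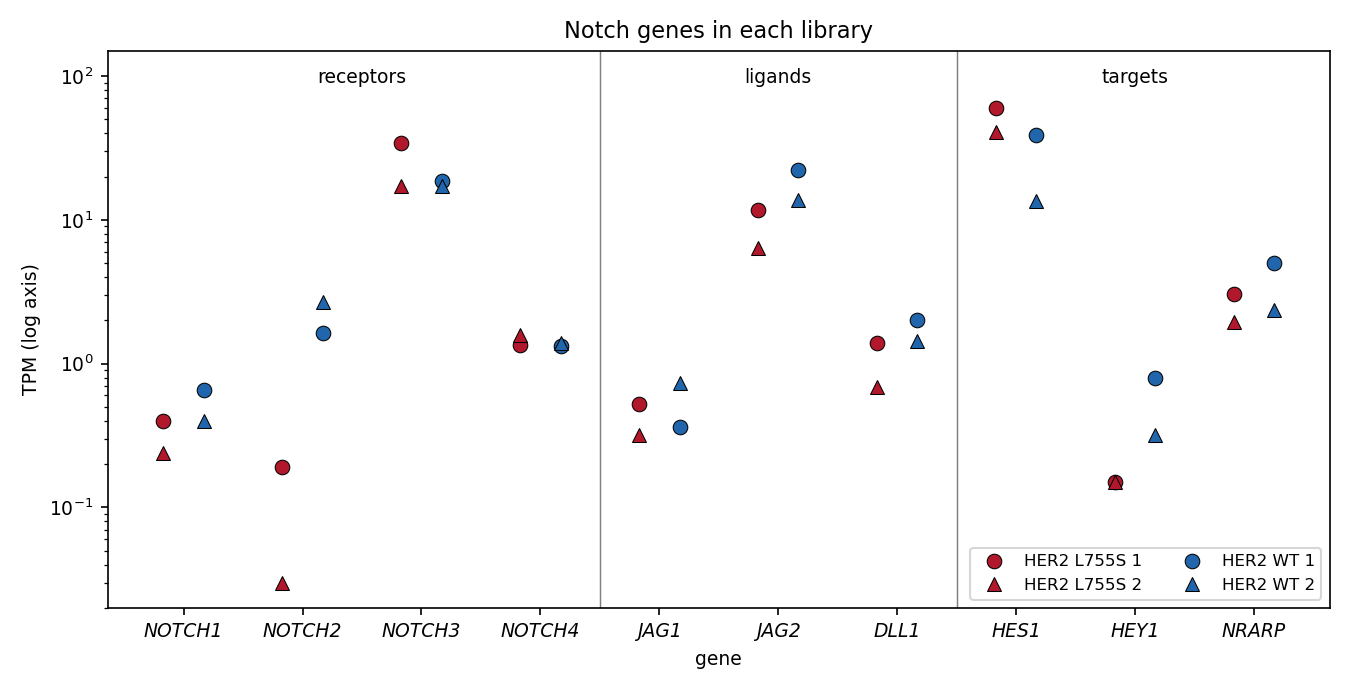
TPM (log axis) of the 10 Notch genes in each library, with HER2 L755S libraries in red left of HER2 WT libraries in blue, circles for library 1 and triangles for library 2. HES1, NOTCH3 and JAG2 lie highest, and NOTCH2 is the gene whose HER2 L755S libraries (0.19 and 0.03 TPM) lie farthest below its HER2 WT libraries (1.63 and 2.68 TPM).

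Among the receptors, NOTCH2 (ENSG00000134250, GRCh38 chromosome 1, 119911553 to 120069626, minus strand) had 48 and 9 counts in HER2 L755S 1 and 2, against 440 and 671 counts in HER2 WT 1 and 2. The 95% Poisson intervals, which cover counting error only, ran from 4.12 to 17.1 counts in HER2 L755S 2 and from 400 to 483 counts in HER2 WT 1. On the CPM scale NOTCH2 averaged 0.996 ± 0.913 in HER2 L755S and 18.4 ± 6.73 in HER2 WT (SD, n = 2 each). Both HER2 L755S libraries thus lay far below both HER2 WT libraries, while they also differed from each other by more than their counting error. The fit of the 4 libraries gave NOTCH2 a log2 fold change of -4.18 (SE 0.63). Pair 1 (HER2 L755S 1 over HER2 WT 1) differed by -3.04 and pair 2 (HER2 L755S 2 over HER2 WT 2) by -5.97. The fitted value was -5.69 without HER2 L755S 1 and -3.48 without HER2 L755S 2.

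Part of NOTCH2 exists as near-identical copies on the same chromosome, and the tables list 1 of them with reads, NOTCH2NL (ENSG00000264343, named NOTCH2NLA in GENCODE 29, chromosome 1, 146146203 to 146229026), which encodes a secreted protein made of the first repeats of NOTCH2. Reads that fit both genes were divided between them by RSEM, the program that estimated the expected counts. Of the 11290 windows of 100 bases in the longest NOTCH2 transcript (11389 bases), 164 (1.45%) occurred unaltered in a NOTCH2NL transcript, all within bases 75 to 531. Seen from the copy, 49.5% of the windows of its longest transcript occurred in NOTCH2. NOTCH2NL had 25.4 and 20.2 counts in HER2 L755S, against 82.1 and 125 in HER2 WT libraries, a log2 fold change of -2.06 (SE 0.52, pairs -1.55 and -2.44) that missed the threshold (edgeR, Benjamini-Hochberg adjusted p = 0.082). NOTCH2NL was called with no filter (0.00733), with DESeq2 (0.031) and with the replicate number, whose meaning is not stated, as a block (0.00638). It was not called with DESeq2 size factors in edgeR (0.0849) or with at least 50 counts in 2 libraries (0.0603). With a library left out the log2 fold change of NOTCH2NL ranged from -2.39 (without HER2 WT 1) to -1.61 (without HER2 WT 2). With both genes summed, a choice made after the data were seen, 73.4 and 29.2 counts were left in HER2 L755S, against 522 and 797 in HER2 WT, with pair differences of -2.68 and -4.57. In this sum too, which does not depend on how reads were divided between these genes, both HER2 L755S libraries lay below both HER2 WT libraries. The pseudogene NOTCH2P1 had 0 counts in every library. The copies NOTCH2NLB, NOTCH2NLC and NOTCH2NLR had no entry under these symbols, and where reads from them were assigned is not known.

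The genes around NOTCH2 differed less. In the 2.5 Mb on either side of its start, 8 other protein-coding genes had at least 5 CPM on average, and their fitted log2 fold changes ran from -1.24 for NBPF26 to 0.26 for SRGAP2C, with a median of -0.30. SEC22B, the nearest of them at 0.107 Mb, had a log2 fold change of 0.00, and WARS2 on the other side had -0.32. Over all 1114 such genes of chromosome 1 the median was -0.18, against 0.03 over all chromosomes. Around NOTCH2NL, 21 such genes within the same distance had a median of -0.53, with values from -3.98 to 0.15. The part of this shift in the NOTCH2NL value was not tested.

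**Figure D2:**
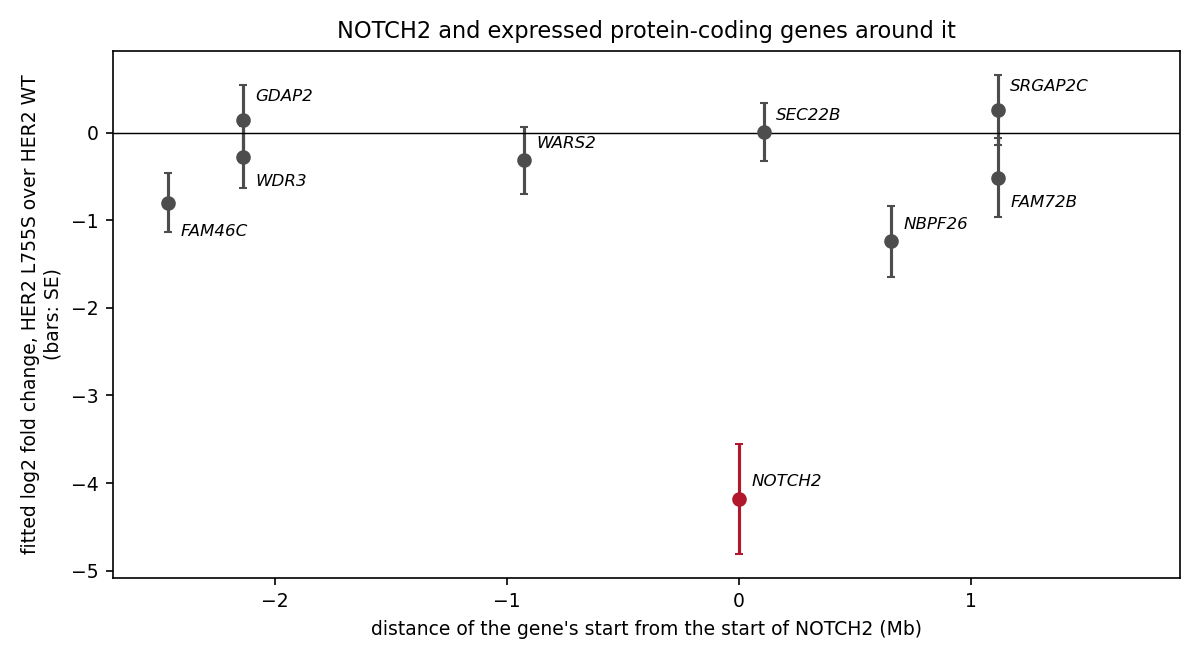
Fitted log2 fold change, HER2 L755S over HER2 WT, of NOTCH2 (red) and of protein-coding genes with at least 5 CPM on average around it, by distance of their start from that of NOTCH2 in Mb, with SE as bars. NOTCH2 lies at -4.18, while its neighbours lie between -1.24 and 0.26.

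NOTCH3 (chromosome 19, 15159038 to 15200981), the receptor with the highest level, had 205 and 116 CPM in HER2 L755S 1 and 2, against 116 and 86.7 CPM in the HER2 WT libraries. Since HER2 L755S 2 stood at the level of HER2 WT 1, the lines overlapped, and HER2 L755S 1 was the high library. The fit put the log2 fold change at 0.66 (SE 0.35), and the pairs differed by 0.82 and 0.42. NOTCH3 made up 94.6% and 90.3% of the summed TPM of the 4 receptors in HER2 L755S, against 83.8% and 79.4% in HER2 WT libraries. NOTCH2 made up 0.526% and 0.158% of that sum in HER2 L755S, against 7.31% and 12.4% in HER2 WT libraries.

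NOTCH1, the receptor best known from T cell development, stood at 2.84 and 2.18 CPM in HER2 L755S, against 4.57 and 2.17 in HER2 WT libraries. Only HER2 WT 1 was higher than the rest, and the pair differences were -0.68 and 0.01. Without HER2 WT 1 the fitted log2 fold change of -0.43 (SE 0.50) became 0.21. NOTCH4, known mainly from endothelium, had 1.57 and 2.34 CPM in HER2 L755S, against 1.54 and 1.58 CPM in HER2 WT, and the lines overlapped. RSEM assigned the NOTCH4 reads to transcripts with an effective length of 1459 to 1538 bases, while the longest annotated transcript has 6745 bases, so its TPM is high for its count. NOTCH4 (chromosome 6, 32194843 to 32224067) also overlaps GPSM3 on the same strand in GENCODE 29.

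Of the ligands, JAG2 had the highest level. It stood at 30.1 and 16.7 CPM in HER2 L755S 1 and 2, against 56.1 and 24.4 CPM in HER2 WT 1 and 2. In CPM both number 2 libraries were lower than both number 1 libraries. Within each number HER2 L755S was the lower one, so that the lines overlapped. In TPM they did not overlap, at 11.7 and 6.40 against 22.3 and 13.7. The JAG2 effective length was 3326 and 2627 bases in HER2 L755S 1 and 2, against 3323 and 2253 in HER2 WT 1 and 2. The fit put the log2 fold change at -0.78 (SE 0.45), and the pairs differed by -0.90 and -0.54. It was -0.06 without HER2 WT 1 and -1.27 without HER2 L755S 1.

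DLL1, a ligand of the Delta family, had 72 and 52 counts in HER2 L755S, against 146 and 87 in HER2 WT libraries. Both HER2 L755S libraries were below both HER2 WT libraries, at 2.46 and 2.03 against 4.51 and 3.0 CPM, a fitted log2 fold change of -0.74 (SE 0.46, pairs -0.87 and -0.56). DLL1 (chromosome 6, 170282206 to 170306565) overlaps FAM120B on the other strand, which had far more reads, and the sources used here do not give the strand setting of the counting. JAG1, the ligand best known from Alagille syndrome, had 69 and 48 counts in HER2 L755S, against 46 and 51 in HER2 WT libraries. In CPM the lines did not overlap, at 2.36 and 1.87 against 1.42 and 1.76, but in TPM they did, at 0.52 and 0.32 against 0.36 and 0.73. The effective length that RSEM estimated for JAG1 was 5827 and 5823 bases in HER2 L755S 1 and 2, against 5177 and 3040 bases in HER2 WT 1 and 2, and the direction of JAG1 turned with it: the fitted log2 fold change was 0.41 (SE 0.49), while the mean pair difference of log2(TPM + 0.1) was -0.28.

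HES1 (ENSG00000114315, chromosome 3, 194136145 to 194138732), the target with the paired TGGGAA letters shown above, had 1800 and 1389 counts in HER2 L755S 1 and 2, against 1235 and 397 in HER2 WT 1 and 2. It averaged 57.8 ± 5.26 CPM in HER2 L755S and 25.9 ± 17.3 in HER2 WT (SD, n = 2 each). The HER2 L755S libraries lay above both HER2 WT libraries, and HER2 WT 2, at 13.7 CPM, was the low one. The fit put the log2 fold change at 1.16 (SE 0.45), and the pairs differed by 0.69 and 1.98. It was 2.08 without HER2 WT 1 and 0.61 without HER2 WT 2.

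HEY1 (chromosome 8, 79764010 to 79767863) was rare, with 7 and 8 counts in HER2 L755S 1 and 2, against 40 and 15 in HER2 WT 1 and 2. The 95% Poisson intervals of HER2 L755S 2 (3.45 to 15.8 counts) and HER2 WT 2 (8.40 to 24.7 counts) overlapped, so in pair 2 the difference is not detectable at this depth. The fit put the log2 fold change at -1.66 (SE 0.72), and the pairs differed by -2.29 and -0.69. It was -0.90 without HER2 WT 1 and -2.14 without HER2 WT 2. The 349 expressed protein-coding genes of chromosome 8 had a median log2 fold change of -0.34 (pairs -0.39 and -0.33), and the part of this shift in the HEY1 value was not tested. NRARP (chromosome 9, 137300482 to 137302251), which encodes an ankyrin repeat protein that feeds back on the Notch complex, had 3.66 and 3.0 CPM in HER2 L755S, against 5.90 and 2.89 CPM in HER2 WT libraries. HER2 WT 1 was the high library and the others lay together, so that the pair differences were -0.69 and 0.05. Without HER2 WT 1 the fitted log2 fold change of -0.40 (SE 0.47) became 0.20.

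**Figure D3:**
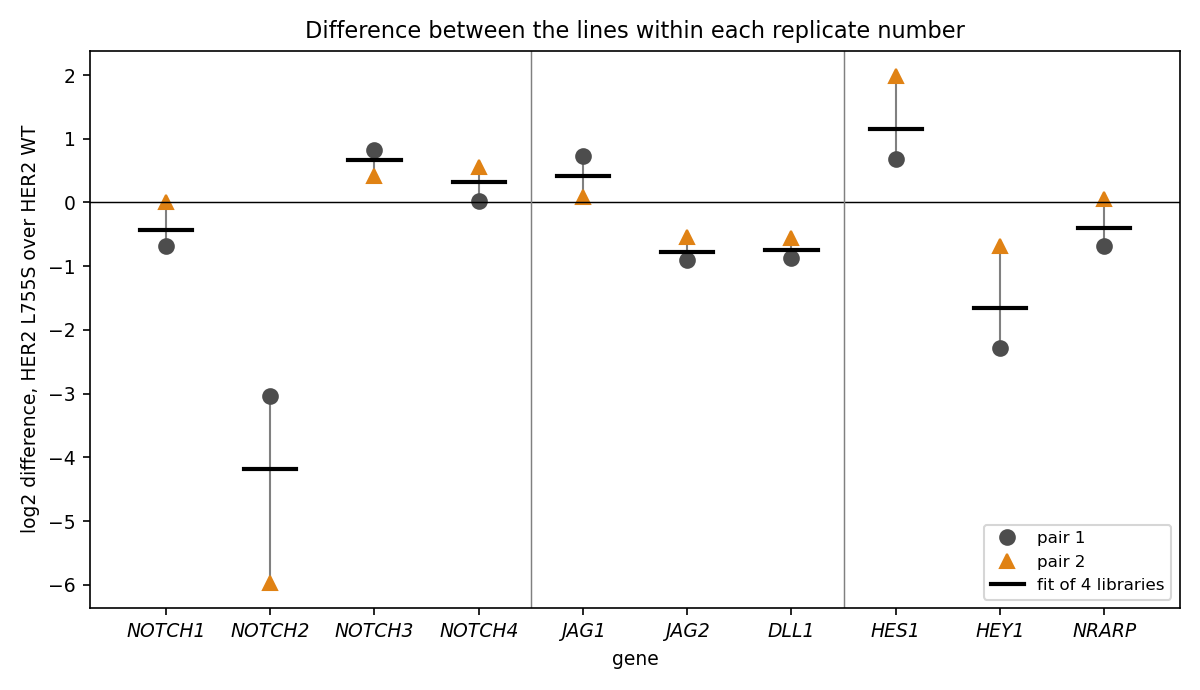
Log2 difference, HER2 L755S over HER2 WT, of each Notch gene in pair 1 (grey circles) and pair 2 (orange triangles), with the fit of the 4 libraries as a black line. JAG2 and DLL1 lie below 0 in both pairs, HES1 above 0 in both, and NOTCH2 at -3.04 and -5.97.

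All 10 genes passed the filter on low counts, NOTCH2 and HEY1 only through the HER2 WT libraries, since fewer than 2 HER2 L755S libraries reached its cutoff of 0.347 CPM for them. Of the 10 genes, 1 (NOTCH2) was past an adjusted p of 0.05 with edgeR's quasi-likelihood test, in a fit in which 1.69% of all 16538 tested genes were (0.738% higher and 0.949% lower in HER2 L755S). With no filter and with DESeq2 it was again NOTCH2 alone. With the replicate number as a block 4 were past it (NOTCH2, NOTCH3, HES1 and JAG2), in a fit that called 725 genes higher and 1018 lower. In CPM the lines did not overlap for 5 of the 10 genes, 2 higher and 3 lower, against 36.2% of all tested genes. Both pairs had the same sign for 8 of the 10 genes, and for 65.5% of all tested genes. The median log2 fold change of the 10 genes was -0.41, with -0.69 in pair 1 and 0.03 in pair 2, and that of all tested genes was 0.00. As the genes were gathered with this contrast in view, these shares support nothing.

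A contrast that did not enter the choice of the genes is that between number 2 and number 1 libraries, with the line as a term in the fit. What the number stands for is not given by the labels. Of the 10 genes, 3 differed and all 3 were lower in the number 2 libraries, in a fit that called 9.94% of tested genes lower and 8.26% higher. JAG2 fell 2.04-fold in number 2 libraries (log2 fold change -1.03, SE 0.20), at an adjusted p of 0.0039 by edgeR's quasi-likelihood test with Benjamini-Hochberg adjustment. HES1 had a log2 fold change of -0.82 (SE 0.25, adjusted p = 0.034) and NOTCH3 one of -0.62 (SE 0.19, adjusted p = 0.034). These 3 genes, the highest of the 10 in TPM, were lower in the number 2 library of each line. In TPM, however, NOTCH3 was nearly level in HER2 WT 1 and 2, at 18.7 and 17.1. The fit took no account of effective length, which for NOTCH3 and JAG2 was shorter in the number 2 library of each line. For NOTCH3 it was 7731 and 6803 bases in HER2 L755S 1 and 2, and 8223 and 6420 in HER2 WT 1 and 2. Its part was not tested. The mitochondrial share given above was higher in the number 2 libraries and its part in this contrast was not tested. Of the fibroblast markers, COL1A1, which makes up most of their sum, was called lower in the number 2 libraries and COL1A2 and COL3A1 were called higher, and their part was not tested either. The median of the 10 genes in this contrast was -0.62, against -0.03 over all tested genes. NOTCH2 did not pass, at -0.14 (SE 0.43, adjusted p = 0.86).

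The rest of the pathway was described by lists of 66 further genes. They too were chosen with earlier results of these data known, so calls between the lines are given as a description. Of the 66 genes, 55 were tested. Of these, 0 passed higher and 1 passed lower in HER2 L755S cells, beside 0.738% and 0.949% of all tested genes. An unadjusted p under 0.05 was found for 8 of the 55, against 10.5% of all tested genes. The median log2 fold change was -0.14 (pairs -0.07 and -0.13), against 0.00 over all tested genes, and 37 of the 55 genes had a negative value, as had 49.7% of all tested genes. In the contrast between numbers, 5 of the 55 genes were called higher and 9 lower in number 2 libraries, beside 8.26% and 9.94% of all tested genes.

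HEY2 (chromosome 6, 125747664 to 125761269), a hairy-related repressor known from heart and vessel development, was the gene that passed. It stood at 7.42 and 7.44 CPM in the HER2 L755S libraries, against 26.4 and 26.2 CPM in the HER2 WT libraries. The libraries of a line lay close to each other, and the lines stood apart. Its log2 fold change was -1.82 (SE 0.34, pairs -1.83 and -1.81), at an adjusted p of 0.025 (edgeR, Benjamini-Hochberg), and HEY2 was called under all 9 alternatives (adjusted p from 2.06e-05 to 0.0435). In the same family, HES2 had 6 and 6 counts in HER2 L755S, against 48 and 25 in HER2 WT libraries, a log2 fold change of -2.40 (SE 0.68, adjusted p = 0.13). HES2 passed the filter only through HER2 WT. It was called with no filter (0.0357) and with the replicate number as a block (0.0268), and not with DESeq2 (0.212). HES6, a relative that opposes HES1, stood at 34.9 and 28.9 CPM in HER2 L755S, against 34.4 and 16.1 CPM in HER2 WT, and overlapped (log2 fold change 0.34, adjusted p = 0.96, and -0.10 without HER2 WT 2). HES5 had 0 counts in every library. In this family HES1 had higher values in both HER2 L755S libraries than in either HER2 WT library. HEY1, HEY2 and HES2 had lower ones, HEY1 and HES2 with few counts and past the filter only through HER2 WT. HES1 and HEY1 had been selected with this contrast in view. Among all tested genes, 16.9% were higher and 19.3% lower in HER2 L755S with no overlap. These values thus describe single genes, and a pattern of the family was not tested. HES4, the remaining tested gene of the family, overlapped between the lines, at 9.37 and 5.45 CPM in HER2 L755S and 14.6 and 2.86 in HER2 WT, and its pairs differed by -0.64 and 0.93.

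**Figure D4:**
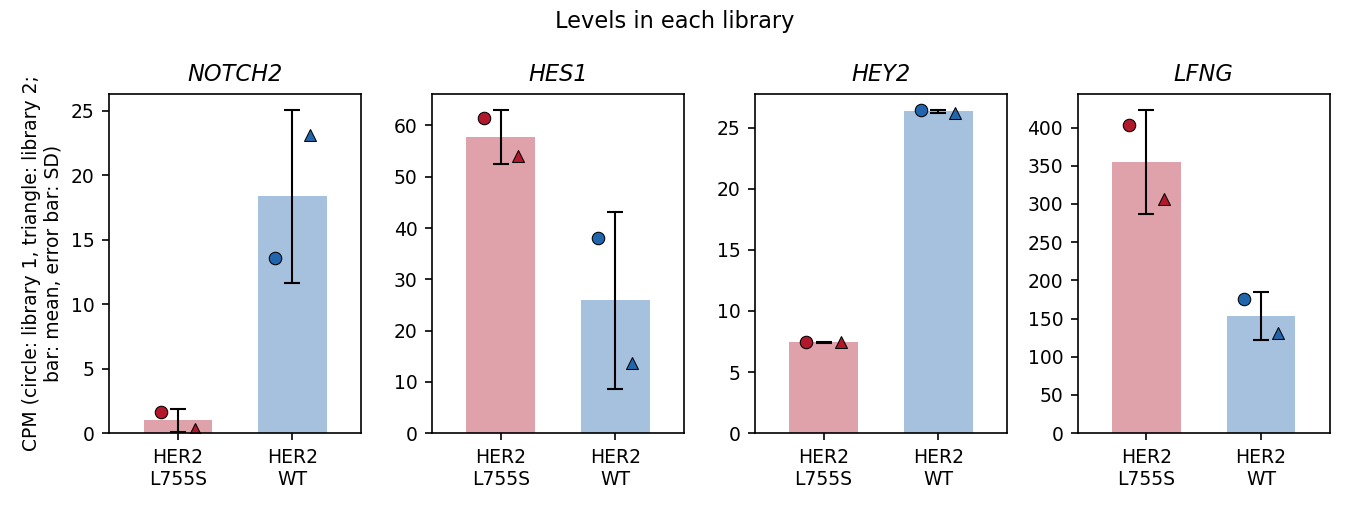
CPM of NOTCH2, HES1, HEY2 and LFNG in HER2 L755S (red, left) and HER2 WT (blue, right) libraries, with circles for library 1, triangles for library 2, bars for the mean and error bars for the SD (n = 2). HEY2 stands at 7.42 and 7.44 CPM in HER2 L755S, against 26.4 and 26.2 CPM in HER2 WT, and LFNG at 403 and 307 against 175 and 131 CPM.

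Among the 15 sugar transferases and processing proteases, all tested, 0 passed and the median log2 fold change was -0.04. LFNG, the Lunatic fringe enzyme that extends sugars on Notch receptors and changes which ligands they answer to, had the highest value of that list. It stood at 403 and 307 CPM in HER2 L755S, against 175 and 131 CPM in HER2 WT, and in TPM, at 292 and 177 against 131 and 94.0, it exceeded every one of the 10 Notch genes. Both HER2 L755S libraries were above both HER2 WT libraries, with a log2 fold change of 1.21 (SE 0.32) and pair differences of 1.20 and 1.22. LFNG missed the threshold (edgeR, Benjamini-Hochberg adjusted p = 0.094). It was called with DESeq2 and with no filter (0.015 each) and with the replicate number as a block (0.000433). It was not called with DESeq2 size factors in edgeR (0.085) or with at least 50 counts in 2 libraries (0.0941). With a library left out the log2 fold change of LFNG ranged from 1.001 (without HER2 L755S 1) to 1.43 (without HER2 WT 1). EOGT and POGLUT1, which add sugars to the repeats of Notch receptors, had log2 fold changes of 0.55 (adjusted p = 0.82) and 0.31 (adjusted p = 0.96). The protease genes ADAM10 and ADAM17 had log2 fold changes of -0.15 (SE 0.36) and -0.04 (SE 0.34), and neither passed.

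Of the 18 genes of the nuclear complex and its partners, 17 were tested and 0 passed, with a median of -0.26. RBPJ, the DNA-binding protein of the complex, stood at 62.3 and 60.6 CPM in HER2 L755S, against 70.0 and 80.7 CPM in HER2 WT, a log2 fold change of -0.29 (SE 0.31, adjusted p = 0.95). The lowest p-values of the list were those of KAT2B, an acetyltransferase of the complex (0.82, SE 0.38, adjusted p = 0.48), the coactivator MAML3 (-0.64, SE 0.35, adjusted p = 0.65) and the corepressor TLE1 (0.64, SE 0.38, adjusted p = 0.71). MAML2 had 0 counts in every library.

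Of 15 genes of ligand and receptor trafficking and turnover, 14 were tested and 0 passed, with a median of -0.13. DTX4, a ubiquitin ligase of the Deltex family, had 4.07 and 3.47 CPM in HER2 L755S, against 9.05 and 9.78 CPM in HER2 WT, a log2 fold change of -1.32 (SE 0.39, adjusted p = 0.14). It lies on chromosome 11, whose 610 expressed protein-coding genes had a median of -0.24, and the part of that shift was not tested. NEURL1 and NEURL1B, related ubiquitin ligases of the Neuralized family that acts on Notch ligands, had log2 fold changes of -1.0 (adjusted p = 0.22) and -0.74 (adjusted p = 0.42). NEURL1 stood at 16 and 16.9 CPM in HER2 L755S, against 36.6 and 29.2 CPM in HER2 WT, with no overlap. With the replicate number, whose meaning is not stated, as a block in edgeR, NEURL1 (Benjamini-Hochberg adjusted p = 0.00376), DTX4 (0.00506) and NEURL1B (0.0299) were called. With DESeq2 they were not (adjusted p = 0.124, 0.0561 and 0.427).

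Of 5 further ligands, 4 were tested and 0 passed. DLL4, the Delta ligand best known from endothelium, had 69 and 49 counts in HER2 L755S, against 26 and 29 in HER2 WT, a log2 fold change of 1.24 (SE 0.52, adjusted p = 0.40). The 8 endothelial markers together summed to at most 0.889 CPM in any library, and which cells the DLL4 reads came from was not tested. DNER had 43.5 and 34.4 CPM in HER2 L755S, against 58.7 and 51.5 CPM in HER2 WT (log2 fold change -0.50, SE 0.33, adjusted p = 0.77), and DLK2 overlapped between the lines. The 8 genes outside the 10 with an unadjusted p under 0.05 were 1 ligand, 1 gene of sugar transfer, 3 of turnover, 2 of the HES and HEY family and NOTCH2NL. DLL4 and LFNG had values above 0, and the others had values below 0.

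**Figure D5:**
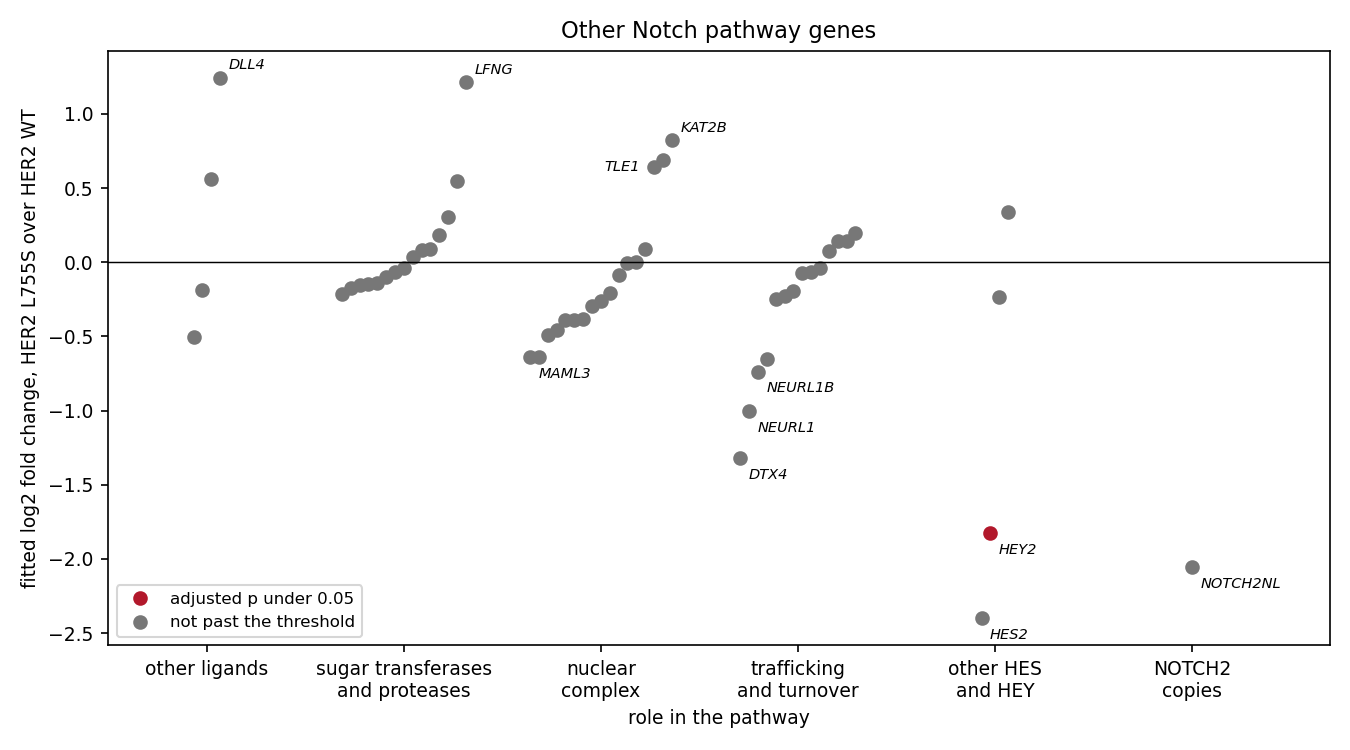
Fitted log2 fold change, HER2 L755S over HER2 WT, of the 55 tested genes of the other pathway lists, by role, with the gene past an adjusted p of 0.05 in red. HEY2 lies at -1.82, LFNG at 1.21 and DLL4 at 1.24, and most genes of the nuclear complex lie below 0.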

How the data were processed

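RNA of 4 MM134 libraries, 2 of the HER2 L755S and 2 of the HER2 WT line, was read from poly(A) libraries made from 250 ng of total RNA, per the labels' protocols. The authors deposited 1 RSEM gene table per library, with an expected count, RSEM's estimated count that can hold fractions, and a TPM value per gene, per the file headers. The deposited effective length, in bases, was used only to describe TPM. STAR, edgeR and the build GRCh38 are named, with no version or role, per the submitters' processing notes, which give no annotation release. Tables of number 2 libraries carry the word merged in their names, unexplained.

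Expected counts were rounded, filtered with filterByExpr (16538 of 60675 genes), scaled by TMM (factors 0.937 to 1.04) and fitted with edgeR 4.0.16 (quasi-likelihood, two-sided) in R 4.3.3, with no replicate term, with Benjamini-Hochberg adjustment over all tested genes and a threshold of 0.05. The contrast between numbers added the line as a term. The SE of a fitted value is its absolute log2 fold change divided by the square root of the F statistic of that test. Pair differences are on log2 CPM with a prior count of 0.5. DESeq2 1.42.0 was an alternative. Both fits were also run on simulated counts. For the contrast between the lines these held no difference between numbers, unlike the data, so they did not check that fit under the spread it met. Positions are from GENCODE 29, in which 16426 tested genes were found.

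The members and lists were chosen with earlier results of these data known. Named genes are the 10 members, per list those past the threshold and the 3 with the lowest p, the NOTCH2 copies and ERBB2; RBPJ, ADAM10, ADAM17, HES4, cell type markers, neighbours of NOTCH2 and genes at 0 were added as context after their values were seen.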

Additional observations from a re-analysis of the deposited data

How the results depend on the processing

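The count of genes higher in HER2 L755S, 122, was 328 with no filter, 276 with DESeq2 and 725 with the replicate number as a block, and that of lower genes, 157, was 431, 309 and 1018 in the same order. Leaving out 1 library gave 160 to 220 higher and 184 to 328 lower genes, with the spread of the lone library's line taken from the other line. Of the other Notch pathway genes, 1 was called, against 4 with no filter, 3 with DESeq2, 8 with the replicate block and 1 to 2 with a library left out. The number contrast called 3010 genes, and 1705 with no filter; a library could not be left out there, since no residual degree of freedom remained. Same-numbered libraries deviated from their group means together (Pearson r = 0.564 across 16538 genes, which are not independent replicates), a hint from the data, as the labels do not say what the number means. The 8 pathway genes called with the replicate block were HEY2 (adjusted p = 2.06e-05), LFNG (0.000433), NEURL1 (0.00376), DTX4 (0.00506), NOTCH2NL (0.00638), HES2 (0.0268), NEURL1B (0.0299) and TLE1 (0.0465). With a library left out, the log2 fold change of NOTCH2 ranged from -5.69 (without HER2 L755S 1) to -3.48 (without HER2 L755S 2). It was -1.49 on log2(TPM + 1), where the pseudocount exceeds its HER2 L755S levels. Of 110 values of the 10 genes under alternatives, 94 moved by less than 1 SD of the pair differences. That SD comes from 2 pairs and is wide where they disagree, as for NOTCH2 (2.07), so it is a loose measure there. Of 150 values of the 17 named other genes, 134 kept direction and side of the threshold and 14 became calls, and 0 calls were lost. Among these named genes HEY2 alone was called in the main fit, so only its values could lose a call. With a library left out, HES6 ranged from -0.10 (without HER2 WT 2, reversed) to 0.98 (without HER2 WT 1), and ERBB2 from -0.69 (without HER2 L755S 1) to 0.33 (without HER2 L755S 2, reversed). HEY1 had no value with at least 50 counts in 2 libraries. Genes at few counts, such as HEY1 and HES2, are limited by depth.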
